A study of Mus musculus with 24 samples.

Results

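Hypoxia-inducible factor, the transcription factor that cells use to answer a lack of oxygen, was followed here through 10 of the 18820 genes tested in mouse hearts. The genes were chosen by symbol, whatever their values: the oxygen-regulated subunits Hif1a and Epas1, the prolyl hydroxylases Egln1 and Egln3, and the target genes Vegfa, Adm, Bnip3, Ndrg1, Ankrd37 and Ldha. Each gene was read from the probe set paired with its symbol alone and with the highest mean over the 24 arrays, and for Bnip3 the second probe set was read as well, which gives 11 probe sets in all. The alpha subunits of the factor are made continuously. In the presence of oxygen the hydroxylases mark them for capture by the von Hippel-Lindau protein and for destruction, and in ischemia the hydroxylases slow down, the subunits persist and join Arnt, and the dimer binds short recognition sequences near genes of glycolysis, vessel growth and cell survival. The regulation of the subunit therefore lies largely in the protein, which an array of RNA does not measure.

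The arrays, Affymetrix Mouse Gene ST, carried left ventricular RNA of male mice of the strain given as BL6C57, with 3 hearts in each of 8 groups. Per2-/- mice lack the circadian clock gene Period 2 from birth and in every tissue, and wildtype mice were their controls. Within each genotype, the left coronary artery of I30 hearts was closed for 30 minutes by a hanging weight and the heart taken without reperfusion, IP0 hearts were preconditioned by 4 short closures, each of 5 minutes and each followed by reperfusion as long, the artery of I30R60 hearts was opened again for 60 minutes after a closure of 30 minutes, and sham hearts were the controls. All mice were young adults. The study describes anesthesia and a catheter in its model of ischemia and calls the control hearts sham operated, whereas their sample titles read untreated control. These descriptions differ, and the name sham follows the study. Levels are log2 intensities after RMA normalization, so that a difference of 1 is a doubling, and they do not allow one gene's level to be set against another's.

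Over all probe sets the arrays had medians of 4.39 to 4.52, and arrays of 1 group correlated at 0.98 or more. I30 arrays had interquartile ranges of 3.76 to 3.98, against 3.96 to 4.11 in the other groups. The Per2 probe set, read first as the targeted gene, differed by -0.13 log2 units in sham hearts (Per2-/- minus wildtype, limma adjusted p = 0.966), by -1.12 after I30 (adjusted p = 0.0643), by 0.37 after IP0 and by -0.31 after I30R60, so that it does not mark the genotype on this array. Where its probes lie relative to the deleted part of the gene was not examined here. Myl7, a marker of atrial muscle, stood at 11.21 in Per2-/- sham replicate 3, at 9.12 in Per2-/- IP0 replicate 3, at 8.24 in wildtype sham replicate 1 and at 5.22 in wildtype sham replicate 2, and did not pass 3.73 in the other 20 arrays. Of the 7 markers of ventricular heart muscle that were measured, none was called in any of the 17 comparisons.

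The 10 genes changed little. Of all 17 comparisons made among the groups, members passed the test in 2, both of them with reperfusion after 30 minutes of ischemia: Ndrg1 and Adm were higher in I30R60 hearts than in I30 hearts, and Ndrg1 was higher in I30R60 hearts than in sham hearts. The sizes were 1.32-fold to 1.58-fold. Hif1a, Epas1, Egln1, Egln3, Vegfa, Bnip3, Ankrd37 and Ldha did not pass in any comparison. No member passed in a comparison of Per2-/- with wildtype hearts or in a test of a different response of the genotypes. The standard deviation within groups had a median of 0.17 over the 10 genes, as over all genes, and the span from the lowest to the highest of the 8 group means had a median of 0.36 over the 10 genes and 0.37 over all genes. The number of arrays limits the precision.

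**Figure D1:**
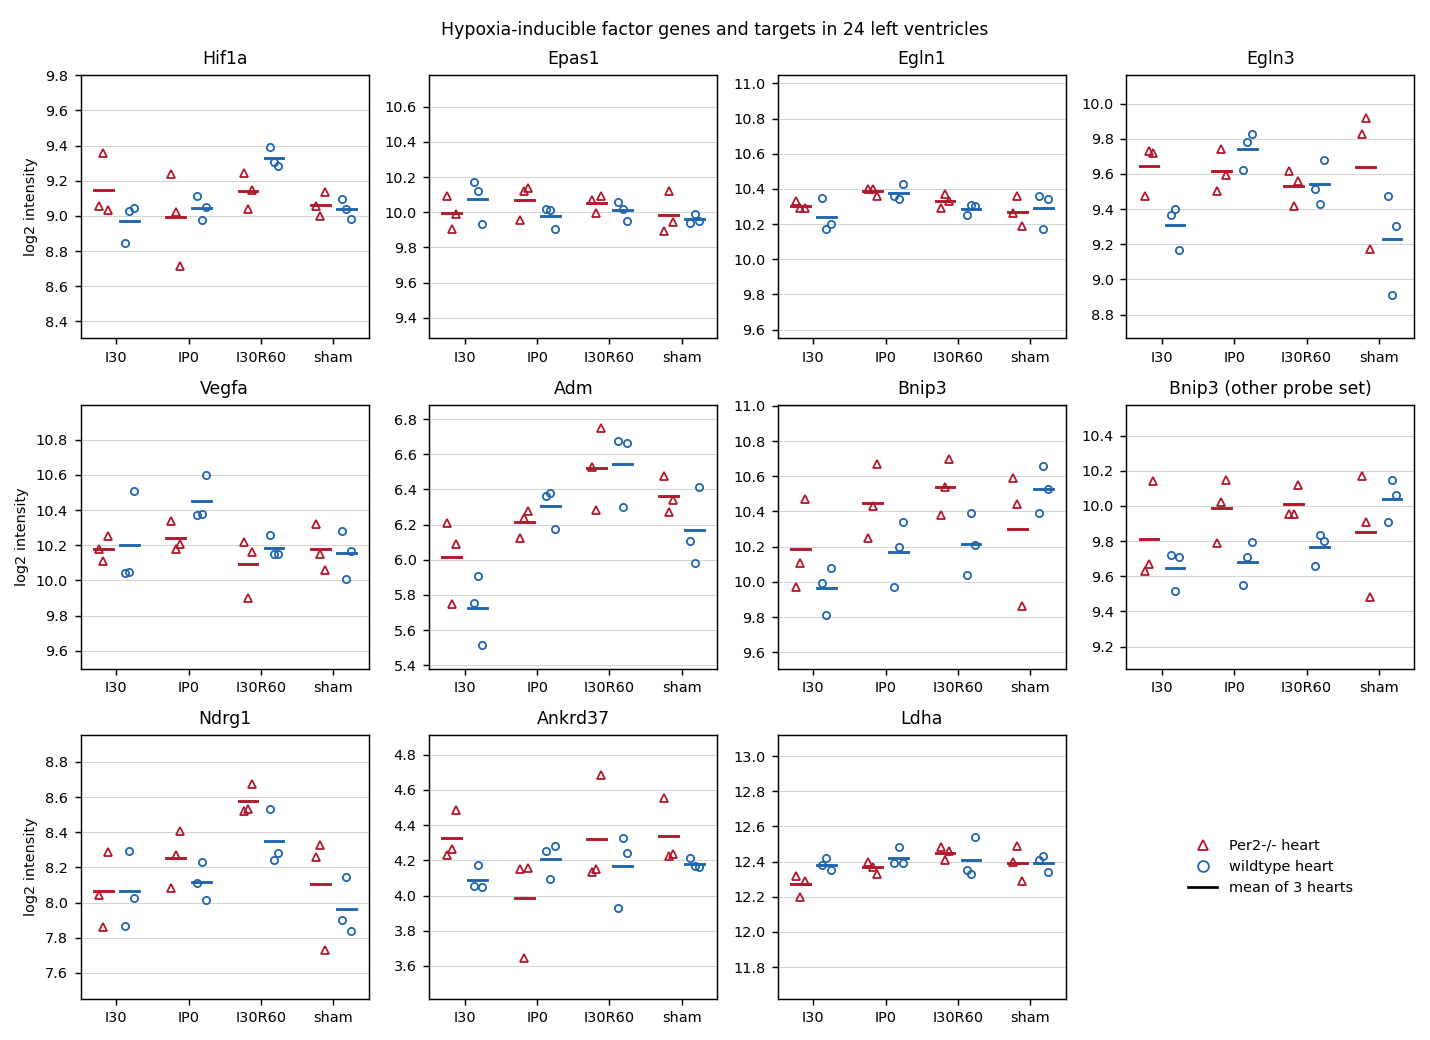
Log2 intensity of each member in the 24 left ventricles, by treatment, with Per2-/- hearts as triangles to the left of wildtype hearts as circles and a line at the mean of 3 hearts; every panel spans the same height. For Adm the I30 hearts lie between 5.51 and 6.21, all below the I30R60 hearts, which lie between 6.28 and 6.75.

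Adm encodes adrenomedullin, a peptide that widens vessels and is released by hypoxic tissue, and it lies on chromosome 7 at 110627657 to 110629820 (GRCm38.p6). It was the member that moved most. In Per2-/- I30R60 hearts Adm had log2 levels of 6.53, 6.28 and 6.75, and in wildtype I30R60 hearts of 6.68, 6.30 and 6.66. Per2-/- I30 hearts had 6.21, 5.75 and 6.09, and wildtype I30 hearts 5.75, 5.91 and 5.51. Every I30R60 heart lay above every I30 heart, in both genotypes. The difference between I30R60 and I30 hearts, averaged over the genotypes, was 0.66 log2 units (standard error 0.10, 95% interval 0.45 to 0.88, limma adjusted p = 0.000218), or 1.58-fold.

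The means of IP0 and sham hearts lay between these for Adm. IP0 hearts had levels of 6.12, 6.24 and 6.28 in Per2-/- and of 6.36, 6.38 and 6.17 in wildtype mice, and sham hearts had 6.48, 6.27 and 6.34 in Per2-/- and 6.11, 5.98 and 6.41 in wildtype mice. Neither difference from sham hearts passed. After I30, Adm differed from sham hearts by -0.40 (standard error 0.10, 95% interval -0.61 to -0.18, adjusted p = 0.057), with every I30 heart below every sham heart within each genotype, and after I30R60 by 0.27 (standard error 0.10, 95% interval 0.05 to 0.48, adjusted p = 0.116). Without the 4 arrays with high Myl7, of which 3 are sham hearts, the I30R60 difference was 0.14 and the I30 difference -0.52. Replicate 3 was then the only wildtype sham heart left. The I30 difference was -0.32 (adjusted p = 0.2) after quantile normalization, which made the distributions of the arrays equal, and it passed the threshold in 5 of 21 alternatives. In a test for any difference among the 8 groups, added after the values were seen, Adm alone of the 10 genes passed (moderated F, adjusted p = 0.0084), where 11.2% of all genes did. Treatment held 64.3% of the sum of squares of Adm, genotype 2.40% and hearts within groups 26.3%.

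Between the genotypes Adm differed by 0.29 after I30 (Per2-/- minus wildtype, 95% interval -0.01 to 0.59), by -0.09 after IP0, by -0.03 after I30R60 and by 0.19 in sham hearts, with adjusted p values of 0.438, 0.984, 0.981 and 0.852. In the order of the 8 group means, the step between Per2-/- I30 hearts and the lowest group, wildtype I30 hearts, was 0.29, which is 1.57 times the standard deviation within groups. All other neighbours in that order lay closer than 1 standard deviation, and every neighbouring pair overlapped. The genes with the profile most like that of Adm over the 24 arrays were Itprid2, Simc1 and Bcar3, with Pearson r of 0.82, 0.81 and 0.81. The arrays share their groups and their normalization, so that these are descriptions.

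The recognition sequence of the factor has the core ACGTG or GCGTG. The tables of promoters from RefSeq (GRCm38.p6) hold 250 bases before and 50 bases after a start of transcription, and 8 of the 10 members matched, with 10 starts; Epas1 and Ndrg1 had no entry. The stretch before the start was searched for both cores on both strands, so that CACGTG counts once on each strand. Of the 32851 promoters in the table, 38.6% hold at least 1 match in that stretch, 16.6% hold ACGTG and 28.2% hold GCGTG. Sequence farther than 250 bases before a start was not searched, so that the counts are not those of a whole gene. The promoter of Adm has 2 matches, where 16.7% of all promoters have 2 or more. That of Ldha at its first start has 5 and that of Bnip3 5, where 1.0% of all promoters have 5 or more. Adm, the member with the clearest change, and Ldha and Bnip3, with the most matches and no call, are shown from 10 bases before the first match to 10 bases after the last, where capitals mark the matches on either strand, read along the gene.

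Adm, chr7:110627557-110627617, plus strand: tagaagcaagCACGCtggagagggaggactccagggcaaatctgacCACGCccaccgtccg

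Ldha, chr7:46845649-46845784, plus strand: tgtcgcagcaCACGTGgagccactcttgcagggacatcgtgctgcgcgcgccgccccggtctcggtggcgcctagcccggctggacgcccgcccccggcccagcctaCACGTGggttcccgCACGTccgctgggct

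Bnip3, chr7:138909527-138909633, minus strand: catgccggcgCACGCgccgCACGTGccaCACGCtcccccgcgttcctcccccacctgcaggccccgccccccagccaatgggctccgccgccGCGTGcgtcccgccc

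Both matches of Adm are GCGTG read on the opposite strand, and Ldha holds CACGTG at 2 places. Of the other starts, that of Egln1 has 2 matches, of Hif1a 3, of Ankrd37 4 and of Egln3 1. The second start of Ldha has 1, and Vegfa has 0 at its first start and 2 at its second. Whether the number of matches goes with the changes in these hearts was not tested. A match is a string of letters and was not tested as a binding site.

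Ndrg1, N-myc downstream regulated gene, is a stress-induced gene used as a marker of hypoxia in many tissues. It lies on chromosome 15 at 66929318 to 66969641 (GRCm38.p6). Log2 levels were 8.52, 8.53 and 8.68 in Per2-/- I30R60 hearts and 8.53, 8.24 and 8.28 in wildtype I30R60 hearts. Sham hearts had 8.26, 8.33 and 7.73 in Per2-/- and 7.90, 8.15 and 7.84 in wildtype mice. Each I30R60 heart lay above all sham hearts of its own genotype, but wildtype I30R60 hearts overlapped with Per2-/- sham hearts. Averaged over the genotypes, Ndrg1 was higher after I30R60 than in sham hearts by 0.43 log2 units (standard error 0.11, 95% interval 0.21 to 0.65, limma adjusted p = 0.0128), or 1.35-fold.

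I30 hearts had Ndrg1 levels of 8.04, 7.86 and 8.29 in Per2-/- and 7.87, 8.29 and 8.03 in wildtype mice, close to those of sham hearts. The difference of I30R60 and I30 hearts was 0.40 (standard error 0.11, 95% interval 0.18 to 0.62, adjusted p = 0.0173). IP0 hearts had 8.09, 8.27 and 8.41 in Per2-/- and 8.11, 8.23 and 8.02 in wildtype mice. Within the genotypes the difference of I30R60 and sham hearts was 0.47 in Per2-/- mice (adjusted p = 0.0834) and 0.39 in wildtype mice (adjusted p = 0.231), neither of which passed alone, and the difference between these responses was 0.08 (95% interval -0.36 to 0.52, adjusted p = 0.995). Per2-/- sham replicate 3, the array with the highest Myl7, had the lowest Ndrg1 level of all 24 arrays. Without it the averaged difference was 0.34 (adjusted p = 0.0348) and that within Per2-/- mice 0.28 (adjusted p = 0.355). Without all 4 arrays with high Myl7, an alternative added once the values were known, the averaged difference was 0.40. The call was lost there, with wildtype sham replicate 3 left alone in its group. The difference of I30R60 and I30 hearts fell short of the threshold without Per2-/- I30 replicate 2 (0.35, adjusted p = 0.0505) and without wildtype I30R60 replicate 1 (0.36, adjusted p = 0.0507). Pxn, Timp3 and Fam214a had the profiles most like that of Ndrg1, with Pearson r of 0.85, 0.84 and 0.83 over the 24 arrays.

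Markers of other cells moved in the same comparisons. Of 10 neutrophil markers, 5 were higher in I30R60 than in sham hearts and 5 higher in I30R60 than in I30 hearts. Their summed intensity, as log2, was 8.09 to 8.86 in Per2-/- I30R60 and 7.78 to 8.92 in wildtype I30R60 hearts, 7.16 to 7.23 in Per2-/- I30 and 7.41 to 8.93 in wildtype I30 hearts, and 6.77 to 7.06 in Per2-/- sham and 7.25 to 7.41 in wildtype sham hearts. Of 6 markers of lung epithelium, 4 were lower in I30R60 than in I30 hearts, with a summed level of 5.29 to 5.40 in wildtype I30R60 hearts, against 6.22 to 8.32 in wildtype I30 hearts. The part of these cells in the changes of Adm and Ndrg1 was not tested, and in RNA of whole tissue fewer cells of a type and less RNA per cell cannot be told apart.

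**Figure D2:**
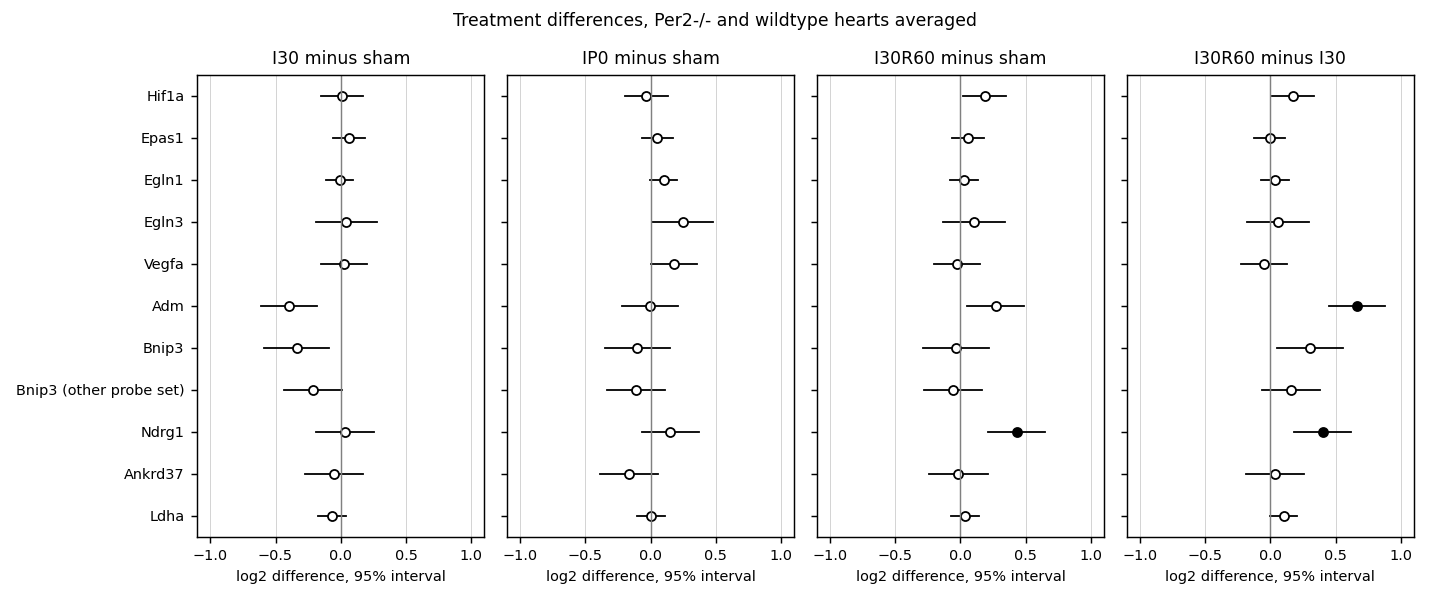
Log2 differences of the 11 probe sets in 4 comparisons averaged over Per2-/- and wildtype hearts, with 95% intervals; filled points have an adjusted p under 0.05. Filled points stand only at Ndrg1 for I30R60 minus sham, at 0.43, and at Adm and Ndrg1 for I30R60 minus I30, at 0.66 and 0.40.

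Among all genes, 12.3% were called between I30R60 and I30 hearts, and 2 of the 10 members. Between I30R60 and sham hearts 9.34% of all genes were called, and 1 of the 10. Against that background neither count stands out. After I30 no member was called by limma where 1.61% of all genes were, and at an unadjusted p under 0.05 stood 2 members beside 20.1% of all genes. After IP0 no member was called where 1.94% of all genes were, and at an unadjusted p under 0.05 stood 2 members beside 14.7% of all genes. The ordinary linear model, with no sharing of variance between genes, called the same number of members in each of the 17 comparisons. The median difference of the 10 genes was 0.00 after I30, 0.03 after IP0 and 0.05 after I30R60, beside medians over all genes of 0.00, -0.01 and -0.03. In these averaged comparisons no 95% interval of a member reached further from 0 than 0.61 after I30, 0.48 after IP0 and 0.65 after I30R60. Within wildtype hearts the bounds farthest from 0 were 0.92, 0.85 and 0.70 in size for the same treatments, and within Per2-/- hearts 0.65, 0.67 and 0.78. The comparisons with sham share their sham hearts and are not independent.

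Neither subunit gene passed in any comparison. Hif1a, the subunit found in nearly all cells, on chromosome 12 at 73901324 to 73947554 (GRCm38.p6), ranged over the 24 arrays by 0.68 log2 units and Epas1, which encodes the 2-alpha subunit known from endothelium, by 0.27. In I30R60 hearts Hif1a had levels of 9.24, 9.04 and 9.15 in Per2-/- and 9.39, 9.30 and 9.29 in wildtype mice, against 9.05, 9.0 and 9.13 in Per2-/- sham and 9.10, 9.04 and 8.98 in wildtype sham hearts. All wildtype I30R60 hearts lay above the wildtype sham hearts (difference 0.29, limma adjusted p = 0.228), and the Per2-/- groups overlapped (0.08, adjusted p = 0.774). The difference between these responses did not pass. The difference averaged over the genotypes was 0.18 (standard error 0.08, 95% interval 0.02 to 0.35, adjusted p = 0.16). Epas1 differed from sham hearts by 0.06 after I30, 0.05 after IP0 and 0.06 after I30R60, with upper bounds of the intervals of at most 0.18.

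Egln1, the main oxygen sensor among the hydroxylases, ranged by 0.26 over all arrays. Its largest difference from sham hearts with the genotypes averaged was 0.10 after IP0 (95% interval -0.00 to 0.20, adjusted p = 0.365). Egln3 is itself a target of the factor and brakes it during long hypoxia, and its levels were spread more widely, by 1.00 over the arrays. Levels after IP0 were 9.50, 9.74 and 9.60 in Per2-/- hearts and 9.63, 9.78 and 9.83 in wildtype hearts. Sham hearts had 9.83, 9.92 and 9.17 in Per2-/- and 9.47, 8.91 and 9.30 in wildtype mice. Wildtype IP0 hearts lay above all wildtype sham hearts, by 0.52 on average (standard error 0.16, adjusted p = 0.154), and Per2-/- IP0 hearts lay within the range of their sham hearts. The difference between the genotypes in this response was -0.54 (95% interval -1.01 to -0.07, adjusted p = 0.997). In sham hearts Egln3 was 0.41 higher on average in Per2-/- than in wildtype mice (95% interval 0.08 to 0.74, adjusted p = 0.539). This value was 0.64 (adjusted p = 0.0565) without Per2-/- sham replicate 3 and 0.25 (adjusted p = 0.873) without wildtype sham replicate 2.

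Vegfa, the growth factor of new vessels, had levels of 10.34, 10.18 and 10.21 in Per2-/- and 10.37, 10.38 and 10.60 in wildtype IP0 hearts. Sham hearts had 10.32, 10.15 and 10.06 in Per2-/- and 10.28, 10.01 and 10.17 in wildtype mice. The wildtype groups did not overlap (difference 0.29, limma adjusted p = 0.31) and the Per2-/- groups did (0.07, adjusted p = 0.94). The difference between these responses did not pass, and the averaged difference was 0.18 (95% interval 0.00 to 0.36, adjusted p = 0.327). After I30 and I30R60 Vegfa differed from sham hearts by 0.03 and -0.03. Ldha, which makes the lactate dehydrogenase chain that favours lactate, ranged by 0.34 over the arrays and differed from sham hearts by -0.07 after I30, 0.00 after IP0 and 0.04 after I30R60, and the bound of its intervals farthest from 0 was -0.17. Ankrd37, a target that carries ankyrin repeats, had levels of 3.64 to 4.68, near the median of the arrays, and its largest averaged difference was -0.16, after IP0. Within Per2-/- mice that difference was -0.36 (adjusted p = 0.525), and -0.18 without Per2-/- IP0 replicate 2 (adjusted p = 0.84).

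Bnip3 encodes a mitochondrial protein of mitophagy and cell death. Its gene lies on chromosome 7 at 138890836 to 138909506 (GRCm38.p6). The probe set with the higher mean, 10.29, has a number that falls among probe sets for genes of chromosome 14, 17 of 18 neighbours, and the other, with a mean of 9.85, falls among probe sets for genes of chromosome 7, 19 of 19 neighbours. Which transcript the first one reads was not tested, so both are given. They varied together over the 24 arrays, with a Pearson r of 0.96.

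In I30 hearts the first Bnip3 probe set had levels of 9.97, 10.11 and 10.47 in Per2-/- and 9.996, 9.81 and 10.08 in wildtype mice, against 10.59, 10.44 and 9.86 in Per2-/- sham and 10.39, 10.66 and 10.53 in wildtype sham hearts. Wildtype I30 hearts lay below all wildtype sham hearts, by 0.56 on average (log2 difference -0.56, standard error 0.17, adjusted p = 0.0824), and for the second probe set by less (log2 difference -0.39, adjusted p = 0.164). The Per2-/- groups overlapped (log2 difference -0.12 for the first probe set, limma adjusted p = 0.917), and the difference between the responses to I30 did not pass. Wildtype IP0 hearts also lay below all wildtype sham hearts with both probe sets (log2 difference -0.36 for each, limma adjusted p = 0.411 and 0.34). In Per2-/- hearts the first probe set differed by 0.15 after IP0 (adjusted p = 0.89), and the difference between these responses did not pass. After I30R60 the first probe set had 10.38, 10.54 and 10.70 in Per2-/- and 10.04, 10.39 and 10.21 in wildtype hearts. The response to I30R60 was 0.55 higher in Per2-/- than in wildtype mice (95% interval 0.05 to 1.05, adjusted p = 0.896). It was 0.43 with the second probe set and 0.33 without Per2-/- sham replicate 3, and did not pass in any of these forms.

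Within wildtype hearts, no member was called by limma after I30, IP0 or I30R60, where 2.39%, 0.850% and 2.47% of all genes were called, and at an unadjusted p under 0.05 the members numbered 2, 3 and 3, beside 19.6%, 12.1% and 13.4% of all genes. Within Per2-/- hearts the count was also 0 after each treatment, where 0%, 0.159% and 4.79% of all genes were called, with 1 member at an unadjusted p under 0.05 each time, beside 7.14%, 8.23% and 17.8% of all genes. The study's methods name a t-test for its data in general, and for the arrays mention only different statistical tests. A t-test of that kind is here called the methods' t-test and does not repeat the study's own calls. At an unadjusted p under 0.05 it took 1, 1 and 2 members in wildtype hearts, beside 14.7%, 11.8% and 11.2% of all genes. In Per2-/- hearts it took 0, 0 and 0, beside 6.64%, 7.9% and 13.8%. Between the responses of the genotypes, 0 members and 0% of all genes were called for I30, 0 members and 0% for IP0, and 0 members and 0% for I30R60, with 0, 2 and 1 members at an unadjusted p under 0.05, beside 7.10%, 4.81% and 5.49% of all genes. A difference in response could have been missed: the intervals of single members reached up to 1.05 log2 units from 0.

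**Figure D3:**
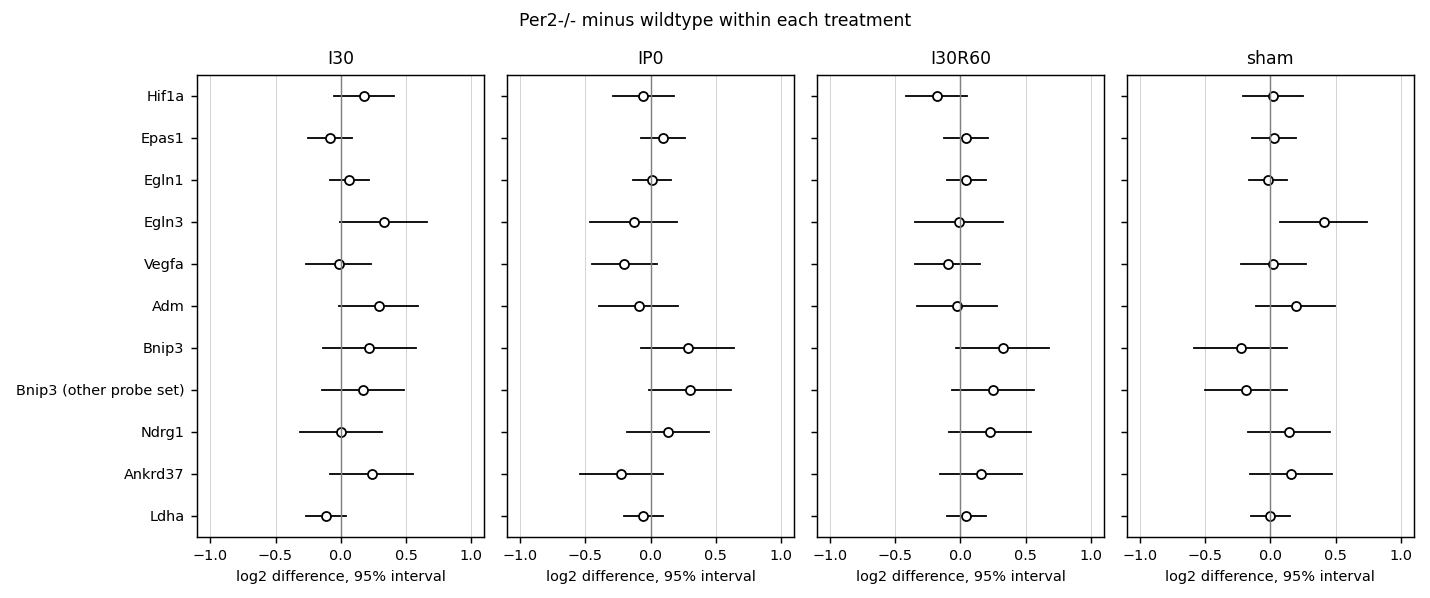
Log2 differences of Per2-/- minus wildtype hearts within I30, IP0, I30R60 and sham, for the 11 probe sets, with 95% intervals and no point filled, since none has an adjusted p under 0.05. The largest is Egln3 in sham hearts at 0.41.

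Set side by side within a treatment, Per2-/- and wildtype hearts gave no member called after I30 (0.664% of all genes), IP0 (0.0797%), I30R60 (0.175%) or in sham hearts (0.266%). At an unadjusted p under 0.05 limma took 0, 0, 0 and 1 of the 10 in that order, beside 12.3%, 5.82%, 8.33% and 7.38% of all genes. The methods' t-test took 2, 0, 0 and 0, beside 9.38%, 6.03%, 6.33% and 7.7% of all genes. The differences ran from -0.11 to 0.33 after I30, from -0.22 to 0.28 after IP0, from -0.18 to 0.32 after I30R60 and from -0.23 to 0.41 in sham hearts. For Ldha, the gene closest to lactate, the genotypes differed by -0.11 after I30 (95% interval -0.26 to 0.04, adjusted p = 0.562) and by 0.00 in sham hearts (95% interval -0.15 to 0.15). Genotype held between 0.10% of the sum of squares, for Hif1a, and 10.2%, for Egln3. The interaction of genotype and treatment held up to 23.1%, also for Egln3.

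The members did not move as one. Over the 24 arrays, the highest correlation of different members was that of Egln1 and Egln3, at a Pearson r of 0.56, and 0.53 after the group means were taken out. Adm and Ndrg1 followed at 0.54, and at 0.31 without the group means. Hif1a and Epas1 ran against each other, at -0.39 and -0.50. These are descriptions over 24 arrays that share groups and normalization.

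A list of 79 other genes of the factor, its regulators and its known targets, of which 74 were measured, was drawn up from general knowledge with earlier results of these data known. After IP0, 9 of the 74 were higher than in sham hearts and 0 lower, or 12.2%, beside 1.94% of all genes. The largest were Ddit4, an inhibitor of growth signalling (1.40, standard error 0.24, adjusted p = 0.00409), Edn1, the vessel-narrowing peptide endothelin 1 (1.09), Ccn2, a matrix protein (0.83), and Cited2, which competes with the factor for its coactivator (0.82). Without the 4 arrays with high Myl7, the difference of Ddit4 was 0.98. Its call was lost there, with wildtype sham replicate 3 left alone in its group.

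After I30R60, 15 of the 74 were higher than in sham hearts and 3 lower, 24.3% beside 9.34% of all genes. Pfkfb3, which speeds up glycolysis, had log2 levels of 8.12, 7.90 and 7.72 in Per2-/- and 7.86, 7.12 and 7.77 in wildtype I30R60 hearts, against 6.17, 6.18 and 5.80 in Per2-/- sham and 5.64, 6.42 and 5.92 in wildtype sham hearts. No I30R60 heart overlapped with a sham heart, and the difference was 1.73 (standard error 0.17, adjusted p = 7.93e-07). Hmox1, heme oxygenase 1, differed by 1.52 on average, by 2.21 in Per2-/- hearts (adjusted p = 0.000645) and by 0.83 in wildtype hearts (adjusted p = 0.297), and the difference between these, 1.38, did not pass (standard error 0.50, adjusted p = 0.888). Ier3, an early stress gene, differed by 1.52 and Pim1, a survival kinase, by 1.32. The lower genes were Kdr, the receptor for Vegfa on endothelium (-0.61, adjusted p = 0.00358), Pgam1, an enzyme of glycolysis (-0.45), and Pdgfb, a growth factor for vessel walls (-0.43). Pdgfb differed by -0.76 in Per2-/- and by -0.10 in wildtype hearts, and this difference between the genotypes did not pass (-0.67, adjusted p = 0.582). Of 8 endothelial markers, 2 were lower in I30R60 than in sham hearts, Egfl7 (-0.55, adjusted p = 0.000265) and Kdr itself. The summed level of the 8, as log2, was 11.83 to 12.07 in Per2-/- I30R60 and 11.98 to 12.18 in wildtype I30R60 hearts, against 12.02 to 12.12 in Per2-/- sham and 12.06 to 12.25 in wildtype sham hearts, and its part in the lower vessel genes was not tested. By role and with the 10 genes counted in, 5 of 11 growth and stress genes were higher, Ndrg1 among them, 5 of 14 genes of angiogenesis and vessel tone were higher and 2 lower, and 2 of 16 genes of glycolysis and lactate were higher and 1 lower. Without the 4 arrays with high Myl7, the difference of Kdr was -0.61, as with all arrays. Its call was lost there, with wildtype sham replicate 3 left alone in its group.

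**Figure D4:**
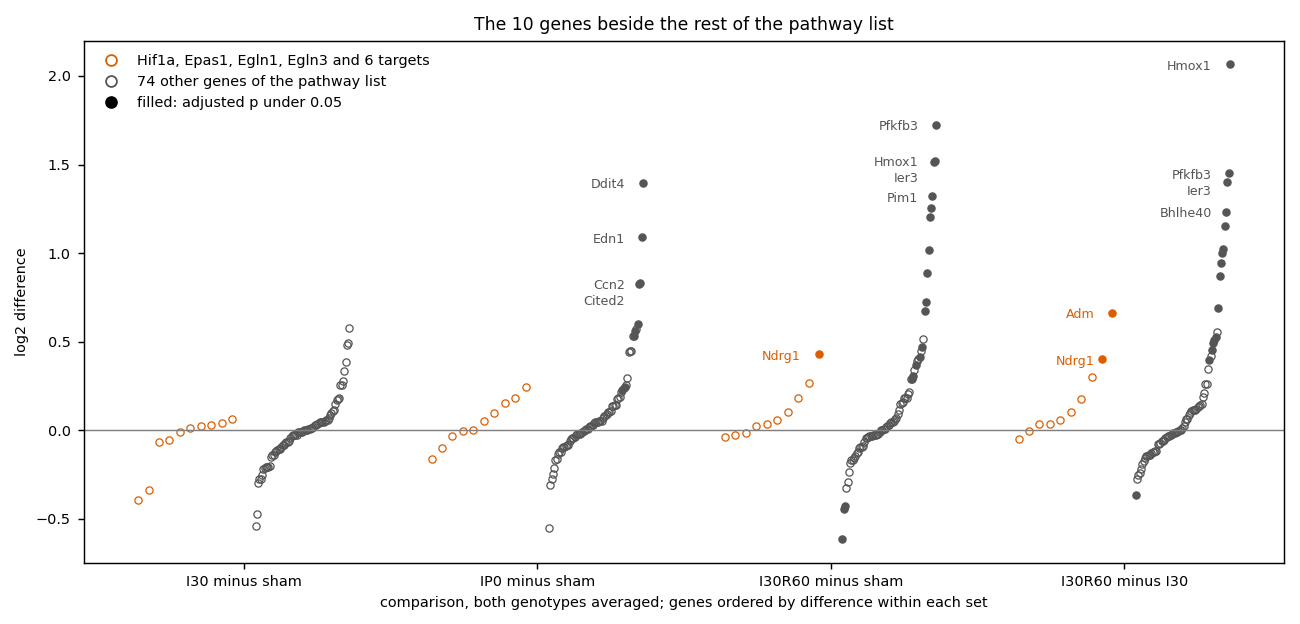
Log2 differences of the 10 genes and of the 74 other measured genes of the pathway list in 4 comparisons averaged over Per2-/- and wildtype hearts, each set ordered by its difference; filled points have an adjusted p under 0.05. The 10 genes stay between -0.40 and 0.66, while Hmox1 reaches 2.07 for I30R60 minus I30.

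Between I30R60 and I30 hearts, 15 of the 74 were higher and 1 was lower, 21.6% beside 12.3% of all genes. Hmox1 differed by 2.07, Pfkfb3 by 1.45, Ier3 by 1.40 and Bhlhe40, a repressor of the clock and of lipid genes, by 1.23. Car12, a carbonic anhydrase, differed by -0.37, at a low signal. Its means were 2.59 in Per2-/- and 2.44 in wildtype I30R60 hearts, against 2.74 and 3.02 in I30 hearts, below the medians of the arrays, 4.39 to 4.52. After I30 none of the 74 was called by limma with the genotypes averaged, where 1.61% of all genes were. Within wildtype hearts Kdr was lower after I30 by 0.94 (log2 difference -0.94, standard error 0.18, limma adjusted p = 0.0154), where 2.39% of all genes were called. Kdr was named after its values were seen. Without the 4 arrays with high Myl7 its difference was -0.93, and the call was lost with wildtype sham replicate 3 left alone in its group. Kdr was the 1 endothelial marker of 8 called there. The summed level of the 8 was 11.88 to 11.94 in wildtype I30 hearts, against 12.06 to 12.25 in wildtype sham hearts. This sum includes Kdr and so is not independent of it. In Per2-/- hearts Kdr differed by -0.00 after I30, and the difference between the responses, 0.93, did not pass (standard error 0.26, limma adjusted p = 0.391). Within Per2-/- hearts none of the 74 was called after I30, where 0% of all genes were. After IP0, 0 were called in Per2-/- hearts, where 0.159% of all genes were, and 3 were higher in wildtype hearts, where 0.850% of all genes were called. After I30R60, 11 were higher and 2 lower in Per2-/- hearts, beside 4.79% of all genes called, and 7 were higher and 1 lower in wildtype hearts, beside 2.47%. None of the 74 was called in a comparison of Per2-/- with wildtype hearts within a treatment, where at most 0.664% of all genes were. The difference in response gave no call among the 74 either, and 0% of all genes. The unequal counts of the genotypes were therefore not shown to differ. The median difference of the 74 genes was -0.01 after I30, 0.05 after IP0 and 0.03 after I30R60.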

How the data were processed

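Left ventricular RNA was measured on 24 Affymetrix Mouse Gene ST arrays, for which the series text and the study's methods name different versions. The authors deposited log2 intensities after RMA in Partek Genomics Suite 6.6, for 35555 probe sets and without detection calls. RMA brings arrays to like distributions, so that a shift shared by most transcripts would not appear. Probe sets that the platform annotation pairs with 1 gene symbol (21218) were used, and those with several symbols (1881) or not listed (12456) were not. The probe set with the highest mean stood for a gene, which left 18820 genes.

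A model with a mean for each of 8 groups was fitted over all 24 arrays in limma 3.58.1 (R 4.3.3), with 16 residual degrees of freedom. P values were two-sided and were adjusted by the method of Benjamini and Hochberg within each comparison. A gene was called at an adjusted p under 0.05. The study's methods give 3 animals for each condition, and each array is called a heart on that basis. The labels only number the replicates. The genes and lists were chosen with earlier results of these data known. The text names the members, up to 4 called pathway genes with the largest rise and up to 4 with the largest fall in each averaged treatment comparison and, for called members, the 3 genes of closest profile. Motifs were searched and figures drawn in Python 3.11.15 with matplotlib 3.10.9, and the fit was tested on simulated data. Replicate numbers were not taken as pairs. Alternatives covered variance options, array weights, scaling, a minimum level, all probe sets, the other probe set of Bnip3, the replicate block, the arrays in the model, the ordinary two-factor linear model, the methods' t-test and each array left out. The F test over 8 groups and the set without the arrays with high Myl7 were added after the values were seen.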

Additional observations from a re-analysis of the deposited data

Results flagged for a closer look

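Each member was screened after each treatment for responses of the genotypes in opposite directions. In 3 cases all hearts of a genotype lay above the mean of their sham hearts. All hearts of the other genotype lay below the mean of theirs. The difference between the responses was tested as an interaction in limma and did not pass in any of these cases. The rule uses a mean of only 3 sham hearts, and the share of all genes that meet it was not counted. In all 3 cases the treated hearts of both genotypes overlapped with their own sham hearts, for Bnip3 with the first probe set. With the second probe set, wildtype I30R60 hearts (9.66 to 9.834) lay below wildtype sham hearts (9.909 to 10.15). For Egln3, Per2-/- I30R60 hearts (9.415 to 9.618) lay within the range of Per2-/- sham hearts (9.171 to 9.918). Egln3 after I30R60 differed from sham hearts by -0.11 in Per2-/- and by 0.31 in wildtype mice, a difference in response of -0.42 (standard error 0.23, adjusted p = 0.935). Adm after IP0 differed by -0.15 in Per2-/- and by 0.14 in wildtype mice, a difference of -0.29 (standard error 0.21, adjusted p = 0.997). Bnip3 after I30R60 differed by 0.24 in Per2-/- and by -0.31 in wildtype mice, a difference of 0.55 (standard error 0.24, adjusted p = 0.896).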

How the results depend on the processing

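The call of Adm between I30R60 and I30 hearts passed in all 21 alternatives, with differences of 0.60 to 0.73. The call of Ndrg1 between I30R60 and sham hearts passed in 20 of 21. It was lost without the 4 arrays with high Myl7, where wildtype sham replicate 3 stood alone in its group. Between I30R60 and I30 hearts Ndrg1 passed in 19 of 21, and with single arrays left out the number of members called there ran from 1 to 2. After I30, averaged over the genotypes, 1 member was called, Adm, with trend and robust variances (adjusted p = 0.0453), with array weights (adjusted p = 0.0425) and with genes of a mean under 5 left out (adjusted p = 0.0399), and with single arrays left out the number ran from 0 to 1: 1 without wildtype I30 replicate 2 (adjusted p = 0.0486) and without Per2-/- I30 replicate 1 (adjusted p = 0.0402). With genes of a mean under 5 left out, 1 member, Ndrg1, was also called after I30R60 within Per2-/- hearts (adjusted p = 0.0416). The methods' t-test at an unadjusted p under 0.05 took 1 member after I30, 1 after IP0 and 2 after I30R60 in wildtype hearts and 2 for Per2-/- against wildtype hearts after I30, and with adjusted p values 0 in each. No value of a member changed direction where it was called. For the other genes of the pathway list, each call was checked in the alternatives, where 179 values fell short of the threshold and 1148 kept their call. The lost calls include those without the 4 arrays with high Myl7, with wildtype sham replicate 3 alone in its group. The number of these genes called in a comparison was scored as moved in 42 cases and as the same in 275. The shares given for them are those of the main fit. The causes of these shifts were not tested.

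Same-numbered replicates did not deviate together: the mean correlation of their deviations was 0.02, against -0.01 for other numbers, and 1 of 28 pairs of groups had all 3 correlations over 0.1. With the replicate block the number of members called was 1 for I30R60 minus sham and 2 for I30R60 minus I30, and no member's call changed (Ndrg1 adjusted p = 0.018 and 0.0224, Adm 0.000237). With 3 hearts a group, differences between the genotypes of the sizes within the intervals given could not be resolved.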
